A study of Homo sapiens with 12 samples.

Results

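The clustered histone genes are the human core and linker histone genes that lie in 4 gene clusters and carry the older symbols HIST1, HIST2, HIST3 and HIST4. They were taken by symbol alone, as every gene whose name starts with one of these 4 prefixes followed by H, and 71 of the 20003 genes used met that rule. By histone type they were 6 H1, 17 H2A, 18 H2B, 15 H3 and 15 H4 genes. In GENCODE 29 on GRCh38, 55 members lay in the HIST1 cluster on chromosome 6 (25726132 to 27893843), 12 carried HIST2 symbols on chromosome 1, 3 were in the HIST3 cluster on chromosome 1 and 1, HIST4H4, was on chromosome 12. One of the HIST2 members, HIST2H3PS2, is named as a pseudogene by its symbol.

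The data were mRNA-seq values in FPKM (fragments per kilobase of transcript, scaled to the mapped fragments of the library) from 2 human leukemia cell lines. NB4 is an acute promyelocytic leukemia line that carries the PML-RARA fusion, and Kasumi-1 is an acute myeloid leukemia line with the AML1-ETO fusion. Each line had 3 control samples given DMSO and 3 samples given 1 µM OGP46, a diterpenoid derived from oridonin, and the labels state 48 h for all groups, although the paper also names a longer incubation for these libraries. Each line is 1 cell line, and the labels do not say whether samples of a group came from separate cultures, so p-values measure only the spread between these samples. The study asked whether OGP46 makes leukemia cells leave the cell cycle and differentiate, and the comparison here looks at transcripts of genes whose expression is tied to S phase.

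Clustered histone genes supply the proteins that package newly copied DNA. H2A, H2B, H3 and H4 form the nucleosome core and H1 binds the linker DNA between nucleosomes. Their transcription rises in S phase under NPAT, and their main mRNAs are unusual in ending in a conserved stem-loop, bound by SLBP, instead of a poly(A) tail. The libraries were made from poly(A)-selected RNA, so a stem-loop mRNA without a tail is largely lost and the values chiefly count tailed forms. Replacement histones such as H2AFZ, H3F3A and H3F3B are made outside S phase from ordinary polyadenylated mRNAs.

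The stem-loop is shown because it marks the form that poly(A) selection misses. The search on the transcript strand was for GG, any 2 bases, CTTTT, any base, AG, any base and GCC. It matched GENCODE 29 models of 31 members. No match was found in models of the other members. Many of these models were short, such as the 381 bases of HIST1H2BK, and a model of the coding sequence alone cannot show the element. Others were longer, such as a model of HIST1H3E with 2679 bases. Of the 31 members, 17 carried the same 16 bases, 5 carried a form with another loop base, all 8 H4 genes had a stem with another base pair, and HIST1H2AG had a form of its own. The common forms, read 5′ to 3′ as DNA, were as follows.
HIST1H2AC and 16 others: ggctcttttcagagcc
HIST1H2BC and 4 others: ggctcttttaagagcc
HIST1H4H and 4 other H4 genes: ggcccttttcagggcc
HIST1H4I and 2 other H4 genes: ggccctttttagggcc
In 22 members a model ran on for more than 100 bases after the stem-loop. HIST2H2BE was annotated for 1729 bases beyond it and HIST1H2AC for 1128, the latter in a spliced model that reaches a distant downstream exon. The median of the mean levels over the 12 samples was 0.181 FPKM in these 22 genes and 0.160 FPKM in the other 49, and 3 genes of each set reached a mean of 1 FPKM. The other 49 include HIST1H2BK and further members with no stem-loop in a model, so an extension could not be read there. These medians therefore do not compare genes with and without one.

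H2A and H2B genes often sit head to head and share the DNA between their starts. There were 11 such pairs with less than 1000 bases between the gene bodies. Both pairs that the results turn on, and the region before HIST1H2BK, the most abundant member, are printed from the RefSeq promoter table (GRCh38.p14), with capitals marking 3 motifs on either strand: the octamer ATTTGCAT of OCT1 binding, the CCAAT box and TATAAA. The first runs along the plus strand at chr1:149886683-149886917, from the start of HIST2H2BE on the left to that of HIST2H2AC on the right. The second is plus strand chr6:26123927-26124171, from HIST1H2BC to HIST1H2AC. The third is the 150 bases before HIST1H2BK, on the minus strand at chr6:27146859-27147008.
HIST2H2BE and HIST2H2AC: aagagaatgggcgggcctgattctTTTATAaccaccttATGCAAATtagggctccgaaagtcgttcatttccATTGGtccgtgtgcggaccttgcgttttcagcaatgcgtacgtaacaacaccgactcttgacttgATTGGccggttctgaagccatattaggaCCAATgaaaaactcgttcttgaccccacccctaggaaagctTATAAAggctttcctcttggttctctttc
HIST1H2BC and HIST1H2AC: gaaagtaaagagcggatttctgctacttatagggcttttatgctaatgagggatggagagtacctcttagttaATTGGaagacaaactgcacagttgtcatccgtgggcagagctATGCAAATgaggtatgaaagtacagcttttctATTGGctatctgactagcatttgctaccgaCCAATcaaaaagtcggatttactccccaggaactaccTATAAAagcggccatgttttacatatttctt
HIST1H2BK: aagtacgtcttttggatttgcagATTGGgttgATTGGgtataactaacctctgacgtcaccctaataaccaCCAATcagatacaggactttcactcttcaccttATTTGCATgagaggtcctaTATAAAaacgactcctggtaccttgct
Each of the 3 stretches held 1 octamer and 3 CCAAT boxes. In the whole promoter table, the octamer was present in 26 of the 66 members with an entry, against 2.19% of 27305 promoters of the same length. By type it stood in 14 of 18 H2B and 11 of 16 H2A promoters, in 1 of 13 H3 promoters and in no H1 or H4 promoter. CCAAT was found in 56 of 66 member promoters against 39.7% of all, but in 3 of 13 H4 promoters, and TATAAA in 45 of 66 against 14.0%. None of the 3 motifs contains another, head-to-head pairs count a shared stretch for both genes, and a match is a description of letters and not of binding.

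Levels were low for nearly all members. Summed over the 71 genes, the samples held between 19.2 and 35.3 FPKM, whereas the 12 replacement histone genes summed to between 1207 and 1535 FPKM in the same samples. Only 6 members reached a mean of 1 FPKM over the 12 samples, 36 lay between 0.1 and 1 FPKM, 19 lay above 0 and below 0.1 FPKM, and 10 were listed at 0 in every sample. Just 13 members were above 0 in all 12 samples.
The 10 at 0 were HIST1H2AA, HIST1H2BA, HIST1H4G, HIST2H2AA4, HIST2H3C, HIST2H4A, HIST2H4B, HIST3H2A, HIST3H2BB and HIST3H3. HIST1H2AA, HIST1H2BA and HIST3H3 are known as testis genes. HIST2H2AA4, HIST2H3C, HIST2H4A and HIST2H4B are near-identical copies of a neighbour: from 97.1% to 100% of the 50-base stretches in their models also occur in another member, so most reads from them match more than one gene. For the other 6 that share was at most 1.21%. Only models of the 71 members were searched, so matches to any other gene were not counted.
HIST1H2BK, an H2B gene at chr6:27146418-27146798 on the minus strand, was the most abundant member with a mean of 8.88 FPKM, and it alone made up between 19.3% and 46.7% of the summed level of a sample. The next were HIST1H2BH (2.05 FPKM), HIST2H2AC (1.82 FPKM), the linker histone gene HIST1H1C (1.56 FPKM), HIST1H2AC (1.49 FPKM) and HIST1H2BC (1.27 FPKM). The highest H3 gene was HIST1H3H at 0.690 FPKM and the highest H4 gene was HIST1H4I at 0.460 FPKM. Thus 54.2% of the summed level was H2B and 22.0% H2A, with 9.79% H3, 7.24% H4 and 6.72% H1, although the 4 core types enter the nucleosome in equal numbers.

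**Figure D1:**
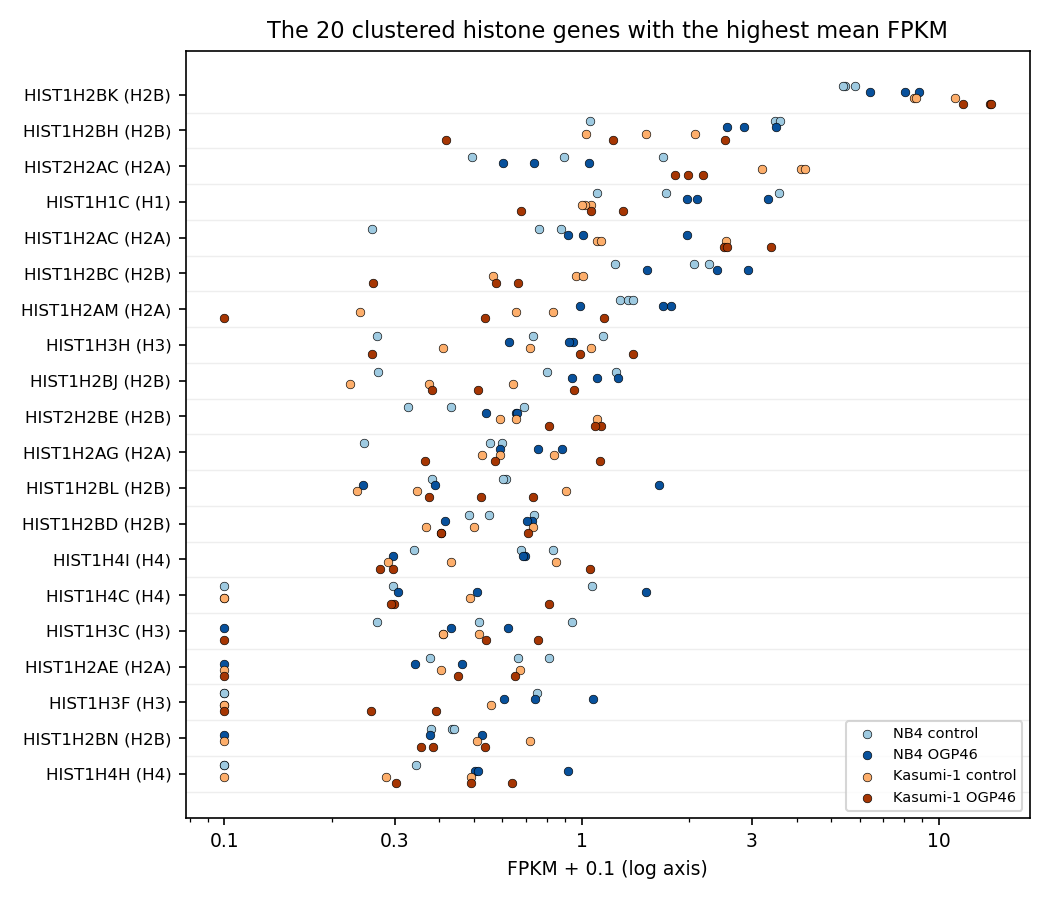
FPKM + 0.1 on a log axis for the 20 clustered histone genes with the highest mean, with 1 point per sample and colours for the 4 groups. HIST1H2BK stands apart from all other members in every group, and points at 0.1 are samples in which the gene was listed at 0.

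Many of the low values repeated a small step. HIST2H3D, for example, stood at 0.139, 0.157 and 0.158 FPKM in the Kasumi-1 controls. The step could not be turned into counts: of 204 higher values checked in 45 low members, 59.8% lay within 0.2 of a whole multiple of the lowest value, where evenly spread values would give 40%. The number of fragments behind a value is therefore not known. The mean of HIST1H2BK in NB4 controls was 35.4 times the median lowest step of the low H2B genes, which was 0.154 FPKM.

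Summed levels by type are less exposed to how reads were split between copies, and they are given without a test. In NB4 cells the 71 genes summed to 26.5, 29.3 and 19.2 FPKM in the controls and to 32.8, 32.8 and 31.6 FPKM with OGP46. The groups did not overlap, with means of 25.0 ± 5.20 (SD, n = 3) and 32.4 ± 0.702 FPKM. The difference was 7.36 FPKM, and without control 3, the lowest sample, it was 4.47 FPKM. The FPKM of all genes also summed higher in every NB4 sample with OGP46 (263341 to 291523) than in any control (248207 to 256268). With each sample scaled to TPM (FPKM rescaled so that all genes sum to the same total in each sample), the members summed to 104, 114 and 77.5 TPM in controls and to 125, 119 and 108 TPM with OGP46, and the groups overlapped.
H4 was the type that differed most by ratio in NB4 cells. Its 15 genes summed to 1.59, 1.66 and 1.36 FPKM in controls and to 3.13, 2.05 and 3.85 FPKM with OGP46, a ratio of means of 1.96. The H2B sums were 14.3, 16.0 and 10.8 FPKM against 17.7, 17.6 and 16.2 FPKM, also without overlap. HIST1H2BK carried this: without it the H2B difference was 1.26 FPKM in place of 3.46 FPKM, and the groups overlapped at 8.95, 10.2 and 5.50 FPKM against 11.3, 9.64 and 7.51 FPKM. The sums of the other 70 members overlapped as well, at 21.2, 23.6 and 13.9 FPKM in controls and 26.5, 24.8 and 22.9 FPKM with OGP46. On the TPM scale the H4 groups remained apart, and the H2B groups overlapped even with HIST1H2BK. The H4 separation rested on single genes near 0. In OGP46 sample 2, the lowest, HIST1H4E made up 0.647 FPKM and HIST1H4H 0.403 FPKM of the H4 sum. Both were listed at 0 in control 2. Without either gene the H4 sum of this sample would lie below that of control 2. The H1, H2A and H3 sums in FPKM overlapped between the groups, with ratios of 1.31, 1.12 and 1.44. Control 3 weighed on several of these: without it the H1 difference was 0.217 FPKM in place of 0.735 FPKM, that of H2A −0.0170 FPKM in place of 0.578 FPKM, and that of H2B 2.00 FPKM. Over all left-out samples the difference ran from 0.217 to 1.34 FPKM for H1, from −0.0170 to 1.54 FPKM for H2A and from 0.660 to 1.82 FPKM for H3.
In Kasumi-1 cells the total was 26.1, 26.7 and 30.0 FPKM in controls and 29.4, 29.5 and 35.3 FPKM with OGP46, and the groups overlapped. The mean difference was 3.79 FPKM, and it was 1.85 FPKM without OGP46 sample 3. HIST1H2BK alone differed by 3.79 FPKM, and the other 70 genes had a mean of 18.3 ± 0.641 FPKM in controls and 18.3 ± 2.81 FPKM with OGP46. H2A was lower with OGP46 in all 3 same-numbered pairs, at 7.79, 7.09 and 6.39 FPKM against 8.03, 9.39 and 7.50 FPKM, with overlap in FPKM but not on the TPM scale. The mean of HIST2H2AC fell by 1.84 FPKM, more than the H2A sum, whose difference was −1.22 FPKM, and −0.679 FPKM without control 2. The H3 sums did not overlap, at 2.45, 1.87 and 2.53 FPKM in controls and 2.86, 2.74 and 2.97 FPKM with OGP46, a difference of 0.574 FPKM that was 0.368 FPKM without control 2. HIST2H3D made up 0.158 FPKM of the H3 sum in control 3 and 0.614 FPKM in OGP46 sample 3. Without that gene the H3 groups would overlap.

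**Figure D2:**
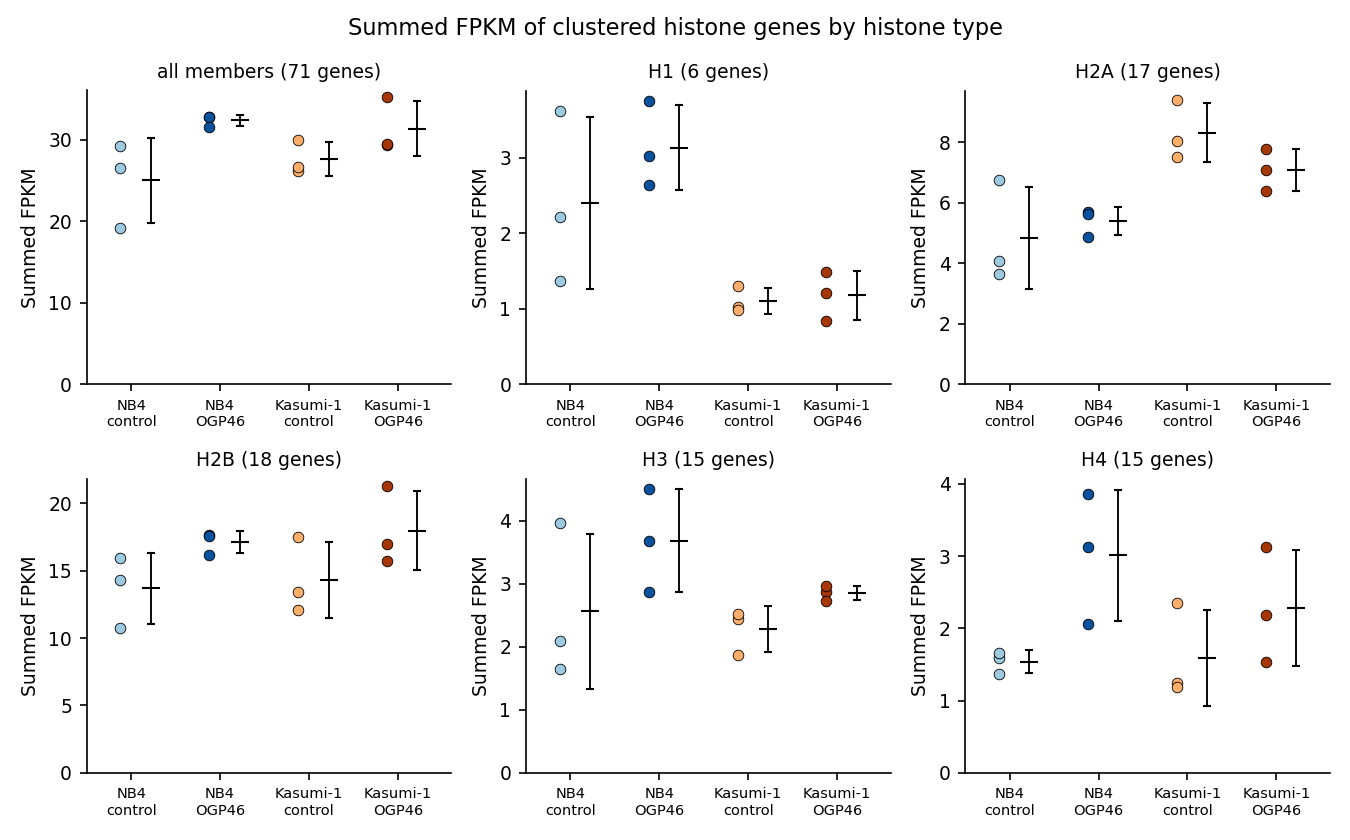
Summed FPKM of all members and of each histone type in the 12 samples, on axes from 0, with 1 point per sample and the mean and SD of 3 samples beside them. In NB4 cells the points with OGP46 lie above all controls for all members, H2B and H4, and in Kasumi-1 cells every panel overlaps except H3.

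The first comparison asked which members OGP46 changed in NB4 cells. None passed the test in the comparison of 3 against 3 samples. A gene was called at a Benjamini-Hochberg adjusted p under 0.05 over all genes tested and a log2 fold change of 0.58 or more in size, about 1.49-fold, by limma on log2(FPKM + 0.1). Of the 71 members, 43 had a mean of at least 0.1 FPKM and were tested. Called higher were 0 of 43 and called lower 0 of 43, against 1.45% and 0.111% of the 11750 genes tested. The smallest adjusted p of a member was 0.0685 in limma, and 10 members were higher and 0 lower at an unadjusted p under 0.05, which 29.1% of all genes passed in either direction. The members' median log2 fold change was 0.42, and that of all genes tested was also above 0, at 0.18. This gap depended on the setting. With 1 added to the FPKM in place of 0.1 both medians were 0.136. Without control 3 they were 0.133 for members and 0.157 for all genes. In the other settings the members' median was the higher. In direction, 31 of 43 members (72.1%) were above 0, against 81.9% of all genes. The groups did not overlap for 4 members (9.3%), all higher with OGP46, against 32.7% of all genes that were higher and 1.91% that were lower. All 3 same-numbered pairs were higher for 9 members (20.9%) and lower for 4 (9.3%), against 52.9% and 6.32% of all genes.
With the replicate number as a block, limma called 9 members higher and 1 lower, 20.9% and 2.33% of the 43, against 5.06% and 1.15% of all genes. Centring the log2 values on their median as well turned this split into 4 higher and 2 lower, beside 188 and 203 of all 11750 genes. Among the 10, 5 kept their call. By type the 9 were 1 H1, 1 H2A, 1 H2B, 3 H3 and 3 H4 genes. Of the 10, 9 were listed at 0 in at least 1 of the 6 NB4 samples, and none of the 5 tested members with a mean of 1 FPKM or more was among them. Of the 9 called higher, 7 had a control mean under 0.1 FPKM and so reached the minimum mean only through OGP46 samples (HIST1H1E, HIST1H2BE, HIST1H3D, HIST1H4E, HIST1H4H, HIST1H4L and HIST2H3D). These counts are therefore a description.

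HIST1H2BK was the most abundant member, and 22.6% of its 50-base stretches occur in other members. Its FPKM was 5.38, 5.72 and 5.28 in NB4 controls and 6.33, 7.96 and 8.68 with OGP46. All samples with OGP46 lay above all controls. The log2 fold change was 0.47 ± 0.13 (SE), with an adjusted p of 0.0758 in limma. With the block the adjusted p was 0.0118, but the size stayed under the minimum of 0.58. Centring every sample on its median left a log2 fold change of 0.25, with an adjusted p of 0.316 in limma and 0.0639 with the block.
Among H2A genes, HIST1H2AC (chr6:26124145-26139116, plus strand) was called with the block. It stood at 0.661, 0.160 and 0.776 FPKM in controls and at 0.910, 0.817 and 1.88 FPKM with OGP46. No control reached the lowest OGP46 sample. The log2 fold change was 1.13 ± 0.48 (SE), with an adjusted p of 0.160 in limma without the block and 0.00603 with it. It was the only one of the 10 that was above 0 in all 6 samples, and it rose in each pair.
Its head-to-head partner HIST1H2BC, 218 bases away, was at 1.97, 2.17 and 1.14 FPKM in controls and at 2.30, 2.82 and 1.42 FPKM with OGP46. Each pair was higher with OGP46, but the groups overlapped and the log2 fold change of 0.29 ± 0.29 (SE) did not pass (limma adjusted p = 0.513). The H2B gene HIST1H2BE was listed at 0 in controls 1 and 3 and stood at 0.183 FPKM in control 2, against 0.151, 0.624 and 0.759 FPKM with OGP46. It was called with the block only (limma adjusted p = 0.0851 without and 0.00337 with it), and the values overlap.
HIST1H2BH, second in level, differed more within the controls (3.37, 3.49 and 0.958 FPKM) than between the groups (3.41, 2.45 and 2.74 FPKM with OGP46).

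Among H3 genes the 3 called with the block were HIST2H3D, HIST1H3F and HIST1H3D. HIST2H3D was at 0.171 FPKM in control 1 and listed at 0 in controls 2 and 3, and it stood at 0.690, 0.180 and 0.337 FPKM with OGP46, with no overlap. HIST1H3F was at 0.651 FPKM in control 1, at 0 in the others, and at 0.977, 0.505 and 0.642 FPKM with OGP46. HIST1H3D was seen in 1 control at 0.138 FPKM and in all OGP46 samples, at 0.116, 0.425 and 0.240 FPKM. In limma with the block their adjusted p-values were 0.00176, 0.00394 and 0.0240, and without it 0.0851, 0.121 and 0.110. HIST2H3D shares 78.2% of its 50-base stretches with other members, so its reads are uncertain.
HIST1H3C went the other way in every pair, from 0.167, 0.842 and 0.415 FPKM in controls to a listed 0, 0.522 and 0.331 FPKM, and did not pass with the block (limma adjusted p = 0.0530). HIST1H3H, the most abundant H3 gene, overlapped at 0.167, 0.633 and 1.05 FPKM against 0.847, 0.525 and 0.825 FPKM.

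Of the H4 genes, HIST1H4H had the smallest p of all members in NB4 cells without the block. It was at 0 in controls 1 and 2 and at 0.245 FPKM in control 3, and it stood at 0.819, 0.403 and 0.413 FPKM with OGP46. The groups did not overlap, and the log2 fold change was 2.03 ± 0.50 (SE) with an adjusted p of 0.0685 in limma and 0.00509 with the block. That size depends on the pseudocount, ranging from 0.51 to 4.16 over the alternatives. HIST1H4E and HIST1H4L were listed at 0 in all NB4 controls. HIST1H4E stood at 0.647 and 0.218 FPKM in OGP46 samples 2 and 3, HIST1H4L at 0.411 and 0.423 FPKM in samples 1 and 3. Both were among the 10 with the block, but their values at 0 leave only the OGP46 samples to describe.
HIST4H4 was the one member called lower with the block. It fell from 0.156, 0.190 and 0.385 FPKM to a listed 0 in OGP46 samples 1 and 2 and 0.325 FPKM in sample 3, with an adjusted p of 0.0415 in limma with the block and 0.256 without. HIST1H4I and HIST1H4C, the most abundant H4 genes, overlapped between the groups. HIST1H4C ranged from a listed 0 to 0.970 FPKM in controls and from 0.206 to 1.41 FPKM with OGP46.
The linker histone gene HIST1H1C was at 1.63, 3.46 and 1.00 FPKM in controls and 1.88, 3.22 and 2.00 FPKM with OGP46, and the groups overlapped. HIST1H1E was at 0 in controls 1 and 2, at 0.217 FPKM in control 3, and at 0.627, 0.325 and 0.131 FPKM with OGP46. It passed the threshold narrowly with the block (limma adjusted p = 0.0469, and 0.129 without it). HIST1H1B overlapped at 0.597, 0.158 and 0.148 FPKM against 0.0663, 0.203 and 0.626 FPKM.

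The same question in Kasumi-1 cells gave 1 member, HIST2H2AC, which fell. Of the 71 members 41 were tested, and 0 were called higher and 1 lower, 0% and 2.44%, against 0.0169% of 11835 genes in each direction. At an unadjusted p under 0.05, 3 were higher and 5 lower, and 15.6% of all genes passed in either direction. With the replicate block 3 fell and 0 rose, 7.32% and 0%, against 0.346% and 0.270% of all genes. The 3 were HIST2H2AC, HIST1H2AJ and HIST1H2BC. The members' median log2 fold change was −0.05 and that of all genes 0.05, and 20 of 41 (48.8%) were above 0, against 62.0% of all genes. Groups did not overlap for 2 members that were higher and 2 that were lower (4.88% each), against 17.4% and 5.23% of all genes. All 3 pairs were higher for 6 members (14.6%) and lower for 5 (12.2%), against 31.7% and 13.8% of all genes.
HIST2H2AC, an H2A gene at chr1:149886975-149887364, was at 4.01, 4.12 and 3.10 FPKM in controls and at 1.89, 1.72 and 2.09 FPKM with OGP46. No OGP46 sample reached the lowest control. The log2 fold change was −0.94 ± 0.13 (SE), with an adjusted p of 0.0397 in limma and 0.00759 with the block. Leaving out control 1, control 2, OGP46 sample 1 or OGP46 sample 2 ended the call, with adjusted p-values up to 0.180, while the log2 fold change stayed between −1.06 and −0.86. Reads of this gene are partly shared, since 30.5% of its 50-base stretches occur in other members. In NB4 cells it was lower and overlapped, at 1.59, 0.793 and 0.393 FPKM in controls and 0.636, 0.503 and 0.946 FPKM with OGP46.
Its head-to-head partner HIST2H2BE, 322 bases away, did not follow it. It stood at 1.01, 0.555 and 0.490 FPKM in Kasumi-1 controls and at 1.04, 0.712 and 0.992 FPKM with OGP46, higher in each pair, with a log2 fold change of 0.41 that was not called.

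HIST1H2BK again did not overlap between the Kasumi-1 groups, at 8.40, 8.52 and 11.0 FPKM in controls and 11.6, 13.8 and 13.9 FPKM with OGP46. On the TPM scale its lowest OGP46 sample (39.0) fell just below the highest control (39.3), whereas its NB4 groups stayed apart. The log2 fold change of 0.49 ± 0.11 (SE) had an adjusted p of 0.105 in limma and 0.0125 with the block, and its size missed the minimum. The neighbouring H2A gene HIST1H2AH, 330 bases away, was 32.5 times lower in mean level and was not called in either line.
HIST1H2AJ was at 0.269, 0.602 and 1.06 FPKM in Kasumi-1 controls and at 0.162, 0.163 and 0.146 FPKM with OGP46. The 3 OGP46 samples sat at the lowest step of the gene, and the groups did not overlap. It fell with the block (log2 fold change −1.39 ± 0.30 SE, limma adjusted p = 0.0402, and 0.130 without it), and 83.7% of its 50-base stretches occur in other members.
HIST1H2AC stood at 1.00, 2.44 and 1.03 FPKM in controls and at 3.29, 2.40 and 2.46 FPKM with OGP46. Control 2 reached the level of the OGP46 samples, and the log2 fold change of 0.93 did not pass (limma adjusted p = 0.176, and 0.0661 with the block). Without control 2 it was the 1 member called higher, with a log2 fold change of 1.32 and an adjusted p of 0.0435 in limma. Of all 11820 genes in that fit 8 were called higher. HIST2H3D was at 0.139, 0.157 and 0.158 FPKM in controls and at 0.167, 0.331 and 0.614 FPKM with OGP46, which did not overlap but did not pass (limma adjusted p = 0.288).
HIST1H2BC, the partner of HIST1H2AC, was lower in each pair, at 0.866, 0.464 and 0.911 FPKM in controls and 0.475, 0.160 and 0.563 FPKM with OGP46. It fell with the block (log2 fold change −0.82 ± 0.17 SE, limma adjusted p = 0.0347) and did not pass without it (0.303).

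**Figure D3:**
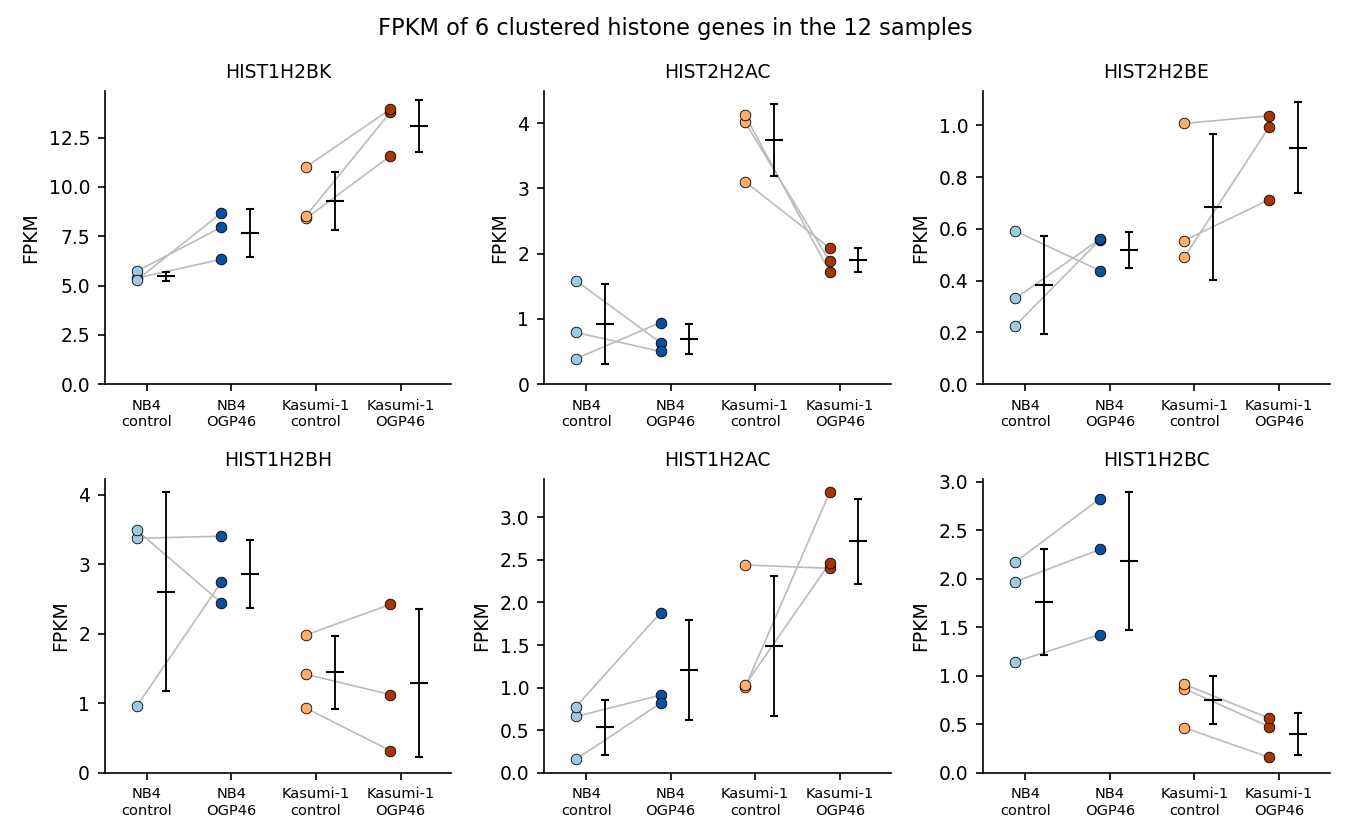
FPKM of 6 members in the 12 samples, on axes from 0, with lines joining same-numbered samples of a cell line and the mean and SD of 3 samples at the side. HIST1H2BK is higher with OGP46 in both lines, HIST2H2AC is lower with OGP46 in each Kasumi-1 pair, and HIST1H2BC lies above its control in each NB4 pair and below it in each Kasumi-1 pair.

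Whether the response differed between the lines was tested as a cell line by treatment interaction over the 12 samples. Of 42 members tested 0 passed in limma, beside 0% of the 12309 genes tested, and 1 member and 11.0% of all genes had an unadjusted p under 0.05. With a replicate block within each line 1 member passed, HIST1H2BC, with the lower response in Kasumi-1 cells, against 1.81% of all genes in that direction and 0.114% in the other. The difference of its log2 fold changes, Kasumi-1 minus NB4, was −1.12 ± 0.18 (SE), with an adjusted p of 0.0209 with the block and 0.457 without.
For HIST1H2AC, which shares its upstream stretch with HIST1H2BC, the difference was −0.21 ± 0.64 (SE) and did not pass (limma adjusted p = 0.915). Among the 37 members tested in both lines, 14 were above 0 in both, 8 below 0 in both, 12 above 0 in NB4 cells only and 3 above 0 in Kasumi-1 cells only.

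**Figure D4:**
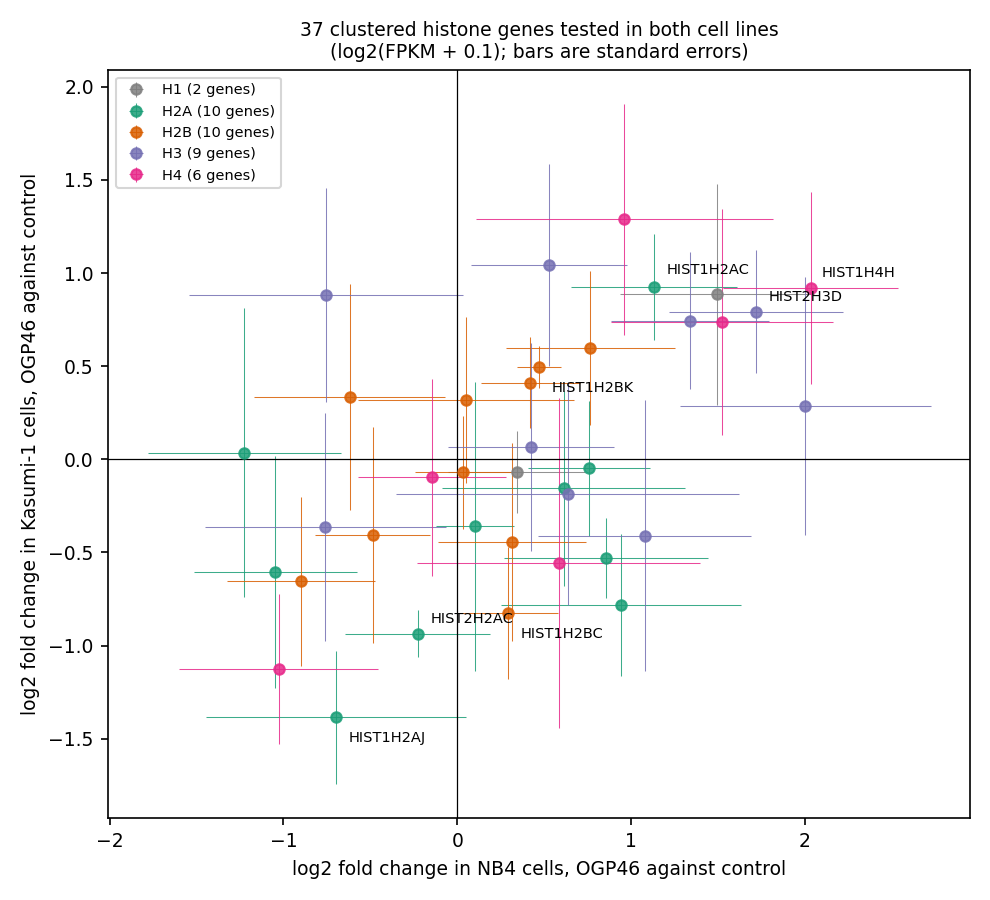
Log2 fold changes of OGP46 against control in NB4 cells (horizontal axis) and Kasumi-1 cells (vertical axis) for the 37 members tested in both, coloured by histone type, with standard errors as bars. HIST1H2BK has the narrowest bars near 0.47 and 0.49, and low members on the right have wide bars.

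Levels in the controls were compared to see how the lines differ without the compound. Of 38 members tested 5 were higher in Kasumi-1 and 5 in NB4 cells, 13.2% each, against 29.7% and 22.7% of the 12302 genes tested. Higher in Kasumi-1 cells were HIST2H2AC (log2 difference 2.07), HIST1H2AK (2.17), HIST1H2AC (1.40), HIST1H2AI (1.22) and HIST1H2BK (0.75), that is 4 H2A genes and 1 H2B gene. Higher in NB4 cells were HIST1H2AM (−1.40 as Kasumi-1 minus NB4), HIST1H2BM (−1.35), HIST1H2BG (−1.33), HIST1H2BC (−1.14) and HIST1H1C (−0.88), that is 1 H2A gene, 3 H2B genes and 1 H1 gene.
HIST1H2BK had the smallest adjusted p of these in limma without the block, 0.000326, with every Kasumi-1 control above every NB4 control. HIST1H2AM was steady in NB4 controls at 1.18, 1.25 and 1.30 FPKM and stood at 0.729, 0.557 and 0.140 FPKM in Kasumi-1 controls, but 86.3% of its 50-base stretches are shared. The values of HIST1H2AK in Kasumi-1 controls were 0.575, 0.398 and 0.536 FPKM, and in NB4 controls it was at 0.136 FPKM in 1 sample and listed at 0 in the others. HIST1H2AK, HIST1H2AI and HIST1H2BM had a mean under 0.1 FPKM in the lower line and reached the minimum mean only through the line where they were higher, so their calls are a description. HIST1H2AI also shares 62.3% of its 50-base stretches.
The head-to-head partners HIST1H2AC and HIST1H2BC thus differed in opposite directions between the lines. HIST1H2AC had an adjusted p of 0.0255 in limma, and 0.0508 with the replicate block, which ended its call, and HIST1H2BC had 0.00582. HIST1H1C was close to the threshold at 0.0485, and it lost its call in 8 of 14 alternatives.

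Genes around the histone clusters were examined as lists. None of the 11 replacement histone genes tested in each line, of 14 genes of histone transcription and mRNA end processing, of 18 histone chaperones or of 23 S phase genes passed in NB4 or in Kasumi-1 cells, with or without the block. The median log2 fold changes in NB4 cells were 0.25, 0.21, 0.11 and 0.11, beside 0.18 for all genes, and in Kasumi-1 cells −0.04, 0.06, −0.0039 and −0.06, beside 0.05. With the block some listed genes had an adjusted p under 0.05 in limma and missed only the minimum size. In NB4 cells these included CCNE2 (log2 fold change 0.52, adjusted p = 0.00567), H2AFJ (0.52, 0.0132) and IPO4 (−0.35, 0.0272). In Kasumi-1 cells IPO4 had −0.37 and 0.0209.
NPAT, the activator of histone transcription, was at 3.58 ± 0.192 FPKM (SD, n = 3) in NB4 controls and 4.35 ± 0.377 FPKM with OGP46 (limma adjusted p = 0.147), and at 3.34 ± 0.179 and 4.01 ± 0.444 FPKM in Kasumi-1 cells (0.268). SLBP, which binds the stem-loop, was at 99.6 ± 5.03 and 102 ± 6.12 FPKM in NB4 cells and at 43.5 ± 3.04 and 41.5 ± 2.88 FPKM in Kasumi-1 cells. PCNA, the sliding clamp of DNA replication, was at 274 ± 15.5 and 295 ± 24.7 FPKM in NB4 cells and at 149 ± 11.7 and 144 ± 10.7 FPKM in Kasumi-1 cells.
Among replacement histones, H2AFZ was at 517 ± 16.9 and 556 ± 44.2 FPKM in NB4 cells, H3F3A at 249 ± 19.0 and 296 ± 28.8 FPKM, H3F3B at 245 ± 13.9 and 270 ± 9.26 FPKM, and the linker histone H1F0 at 4.65 ± 0.355 and 5.74 ± 1.27 FPKM, none called. Of 6 G1 arrest regulators, CDKN1A, the CDK inhibitor p21, rose in NB4 cells from 1.54 ± 0.335 to 4.48 ± 1.53 FPKM (log2 fold change 1.45 ± 0.26 SE, limma adjusted p = 0.0364, and 2.57e-05 with the block). After centring each sample on its median, limma without the block called 0 of the 11750 genes in NB4 cells, so CDKN1A was no longer called, and 1895 genes had an unadjusted p under 0.05. In Kasumi-1 cells it was at 2.65 ± 0.678 and 2.92 ± 0.368 FPKM (limma adjusted p = 0.695).

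A set of 7 members is known from other cells to give polyadenylated transcripts: HIST1H1C, HIST1H2AC, HIST1H2BC, HIST1H2BD, HIST1H2BK, HIST2H2BE and HIST2H2AA3. Their summed level ran from 8.92 to 12.2 FPKM in NB4 controls and from 12.7 to 15.7 FPKM with OGP46, and from 12.6 to 14.7 FPKM in Kasumi-1 controls and from 17.6 to 19.2 FPKM with OGP46. Both lines were without overlap, and HIST1H2BK was the largest part in each sample. Without it the NB4 groups overlapped, and the Kasumi-1 groups did not (3.74 to 5.01 and 5.21 to 6.06 FPKM). None of the 7 was called in either line without the block.

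The markers fixed for each line were checked. RUNX1T1, POU4F1, KIT and CD34 were higher in Kasumi-1 controls, and LGALS12 and STAB1 higher in NB4 controls, while HGF and FGF13, also listed for NB4, were higher in Kasumi-1 cells. FGF13 was listed at 0 in all NB4 samples. The summed level of 7 monocyte and macrophage markers was 14.0 to 14.7 FPKM in NB4 controls and 23.5 to 26.7 FPKM with OGP46, with ITGAM, ITGAX and CD68 called higher and FCGR3A at 0. In Kasumi-1 cells it was 9.58 to 12.6 and 13.5 to 15.5 FPKM, and none of these markers was called, with or without the block. CD68 was the largest part of the sum in both lines. Its means were 8.93 and 13.7 FPKM in NB4 cells and 9.16 and 12.6 FPKM in Kasumi-1 cells. The 5 primary granule genes, led by MPO, summed to 2605 to 3945 FPKM in NB4 controls and 1586 to 2812 FPKM with OGP46, and the groups overlapped. In NB4 cells 0 of the 5 were called without the block and 4 were called lower with it. In Kasumi-1 cells they summed to 9612 to 11917 FPKM in controls and 7759 to 8972 FPKM with OGP46. These groups did not overlap, and none of the 5 was called, with or without the block. The B cell marker MS4A1 was listed at 0 in all 12 samples. Marker sums thus differed in mean between the groups of both lines, beside the H4 and HIST1H2BK values. The part of the markers in those values was not tested. In bulk RNA, a change in the share of cells in S phase and a change in RNA per cell cannot be told apart.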

How the data were processed

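RNA of 12 samples, 3 per group, was made into libraries with an oligo(dT)-based stranded mRNA kit. Per the labels, the authors trimmed reads with Trimmomatic and used HISAT2, Cufflinks, HTSeq and hg38, without versions, and deposited FPKM values per gene. The annotation and the strand setting are not given in the sources used here. Because only FPKM was used, counting error is unknown. In all, 27 gene symbols that had turned into dates were left out, leaving 20003 genes.

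Groups and replicate numbers came from the sample titles. log2(FPKM + 0.1) was tested with limma 3.58.1 (R 4.3.3), empirical Bayes with trend, on genes whose mean in the fitted samples reached 0.1 FPKM, with Benjamini-Hochberg adjustment over all of them. A call needed an adjusted p under 0.05 and an absolute log2 fold change of at least 0.58, without the latter for the interaction. The fits were tested on simulated data with known changes. Same-numbered samples of a line deviated together from their group means (r of 0.197 to 0.622 over genes in NB4 and 0.157 to 0.395 in Kasumi-1 cells). Different-numbered samples gave −0.468 to 0.224 in NB4 and −0.278 to 0.101 in Kasumi-1 cells. NB4 control 1 and OGP46 sample 3 (0.224) were thus more alike than same-numbered NB4 pair 3 (0.197). Each same-numbered r was above 0.1, so the replicate number was also fitted as a block. This pairing comes from the data, since the labels state none, and it is not clear-cut for NB4 pair 3. Between the lines same-numbered samples did not deviate together (−0.0487 to 0.0176).

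Members were matched to GENCODE 29 for coordinates and models, and to RefSeq for promoters (66 of 71). The share of 50-base stretches counts those found in the model of another of the 71 members. Other genes were not searched, so a low share does not show that reads are unique. Named members were those past the threshold in any comparison, with or without the block (for the controls, without it only), the 3 highest in mean FPKM per histone type, and those whose groups did not overlap, 26 in all; HIST2H2BE, HIST1H2AH and HIST2H2AA3 were added as partners or list members. Members and lists were chosen with earlier results of these data known. Some items that these rules select are not reported here. Alternatives were other pseudocounts, filters and scalings, the block, a joint model and leaving out each sample.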

Additional observations from a re-analysis of the deposited data

Results flagged for a closer look

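HIST1H2BC, an H2B gene of the HIST1 cluster, moved in opposite directions in the 2 cell lines: every same-numbered pair was higher with OGP46 in NB4 cells and lower in Kasumi-1 cells. Of all genes tested, 52.9% were also higher in all 3 NB4 pairs, and 13.8% were lower in all 3 Kasumi-1 pairs. The NB4 log2 fold change of HIST1H2BC, 0.29 ± 0.29 (SE), was not called with or without the block. The median of all genes in NB4 cells was 0.18. The difference of the log2 fold changes, Kasumi-1 minus NB4, was −1.12, and the interaction tested with the replicate block gave an adjusted p of 0.0209 in limma over 12309 genes. Without the block the adjusted p was 0.457, and over the alternatives it ran from 0.0209 to 0.845. With the block HIST1H2BC was the 1 member called of 42 tested, beside 1.81% of all genes in that direction.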

How the results depend on the processing

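With FPKM alone and 3 samples a group, calls depended on the settings, also for members above 1 FPKM (HIST2H2AC in Kasumi-1 cells lost its call in 6 of 15 alternatives). In NB4 cells the count of members called higher, 0 as reported, was 9 with the replicate block, beside 595 of 11750 genes. It was 4 with the block and median centring (188 of all genes) and 4 in a joint model of the 12 samples (409). When a sample was left out it was from 0 to 1 (1 without OGP46 replicate 2, beside 368 of 11767 genes). The count called lower, 0 as reported, was 1 with the replicate block (135 of all genes) and 2 with the block and median centring (203). In Kasumi-1 cells the count called lower, 1 as reported, was 3 with the replicate block, beside 41 of 11835 genes. It was also 3 with the block and median centring (67 of all genes). It was 0 without a filter on low values, 0 in the joint model, and 0 to 1 with a sample left out. The count called higher, 0, was 1 without control replicate 2 (beside 8 of 11820 genes), and 0 to 1 over the left-out samples. For the interaction 1 passed with the replicate block, with and without centring, with the lower response in Kasumi-1 cells. In that direction 97 and 223 of 12309 genes passed. In the controls, the 5 members higher in Kasumi-1 cells became 3 with a pseudocount of 1, beside 2745 of 12302 genes. They were 3 without a filter (3721 of 20003 genes) and 3 with a minimum mean of 1 FPKM (2720 of 9861). With a sample left out they were 4 to 7, beside 3485 to 3776 genes. The 5 higher in NB4 cells became 2, 1 and 2 under the same settings in turn, beside 2101, 2837 and 2031 genes. They were 3 with a pseudocount of 0.01 (2801 genes). With a sample left out they were from 4 to 8, beside 2638 to 2912 genes (8 without Kasumi-1 control replicate 3). Without HIST1H2BK, the difference in summed FPKM became 1.26 for H2B in NB4 cells, and 1.16e-05 for all members and −0.125 for H2B in Kasumi-1 cells. A minimum mean of 1 FPKM leaves fewer members to test, and otherwise the cause was not tested. Of 378 other values, for 27 fold changes of single members, 319 kept their direction and side of the threshold, 26 gained a call, 33 lost one and 0 turned direction. Between the control groups the block ended the call of HIST1H2AC and added HIST2H2BE (higher in Kasumi-1 cells), HIST1H4C and HIST1H3I (both higher in NB4 cells). HIST1H3I is named here after its values were seen.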

Other observations

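Over the 12 samples, genes outside the clusters whose log2 level closely followed the log2 of the summed members included ANXA7 (Pearson r of 0.89) and HERC3 (0.88), of 9937 genes whose mean reached 1 FPKM. When HIST1H2BK was left out of the sum these values were 0.66 and 0.57. The 12 samples fall into 4 groups of 2 cell lines, so the values describe a likeness across groups and were not tested.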
